A study of Homo sapiens with 8 samples.

Results

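T24 xenograft tumours were split by their level of CDH1, the gene for the cell adhesion protein E-cadherin. T24 is an established human bladder cancer cell line, and the tumours were grown in mice from T24 cells with enforced expression of DDR1, a receptor kinase that binds collagen, or from control T24 cells. The 8 libraries were 4 control and 4 DDR1, and no other treatment, mouse strain, age or time of growth is given in the labels. The sides were chosen by the measured CDH1 level: a library was put on the CDH1-high side at a CDH1 level of 50 CPM or more and on the CDH1-low side below that. The rule gave 4 high libraries, controls 2 and 3 and DDR1 replicates 1 and 2, and 4 low libraries, controls 1 and 4 and DDR1 replicates 3 and 4. Each side thus holds 2 libraries of each label. CPM is the usual scaling of counts to library size, here with TMM, a correction for differences in RNA composition between libraries.

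E-cadherin holds neighbouring epithelial cells together through the catenins, and its gene is switched off by repressors of the ZEB, SNAI and TWIST families when epithelial cells take on a mesenchymal state. In bladder cancer its level is one of the common marks of how epithelial a tumour is. MUC16 encodes a large membrane mucin whose shed part is the CA125 antigen, and PI3 encodes elafin, a secreted inhibitor of neutrophil elastase. Both are made by differentiated surface epithelia.

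Because the sides were drawn from a value measured in these same libraries, the differences between them are given as a description, with no p-value. A gene is called separated here where the 4 high and the 4 low values do not overlap and the mean log2 CPM differs by at least 1, which is 2-fold. Differences are high minus low on a log2 scale, with their standard error (SE) over 4 libraries a side. Values per library are given in the order control 2, control 3, DDR1 replicate 1 and DDR1 replicate 2 for the high side, and control 1, control 4, DDR1 replicate 3 and DDR1 replicate 4 for the low side.

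The libraries held 22416619 to 32271016 expected counts on the high side and 13716285 to 26549100 on the low side. One library goes against its label: DDR1 itself was at 159 CPM in the library labelled DDR1 replicate 1, inside the 110 to 210 CPM of the controls, while the other DDR1 libraries held 343, 427 and 810 CPM. That library lies on the high side, so the counts of separated genes over all genes are also given without it. The counts per list and per chromosome are given with it only. The titles name lane 7 for controls 1 and 2, no lane for controls 3 and 4, and lane 8 for all DDR1 libraries, so each of these 3 sets contains both sides. Controls 3 and 4 share a title prefix, and so do DDR1 replicates 2, 3 and 4; what the prefixes stand for is not stated. Whether each library is from its own mouse is not stated in the labels either, so the p-values further down measure the spread between libraries, which may be technical. In bulk tumour RNA, fewer cells of a type and less RNA per cell cannot be told apart.

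CDH1 (ENSG00000039068, GRCh38 chromosome 16, 68737225 to 68835548, plus strand) stood at 120, 67.9, 167 and 77.2 CPM on the high side and at 36.8, 23.7, 14 and 3.65 CPM on the low side. The library just inside the threshold was control 3 at 67.9 CPM, and the one just outside it was control 1 at 36.8 CPM. All 8 libraries stayed on their side under RLE and upper-quartile scaling. Within the DDR1 label CDH1 ranged from 3.65 to 167 CPM, and the controls spanned 23.7 to 120 CPM.

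MUC16 (chromosome 19, 8848844 to 8981342) read 332, 1072, 1039.6 and 257 CPM on the high side and 39.1, 101, 44.5 and 21.2 CPM on the low side. Its lowest high library, DDR1 replicate 2, was above its highest low library, control 4. The difference was 3.66 (SE 0.71), and it was 3.08 in lane 7, 3.41 in the controls with no lane and 4.07 in lane 8. PI3 (chromosome 20, 45174876 to 45176544) read 526, 97, 173 and 829.9 CPM against 62.3, 27.6, 50 and 7.65 CPM, a difference of 3.36 (SE 0.98). MUC16 and PI3 did not have their peaks in the same libraries: MUC16 was highest in control 3 and DDR1 replicate 1, and PI3 in control 2 and DDR1 replicate 2.

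**Figure D1:**
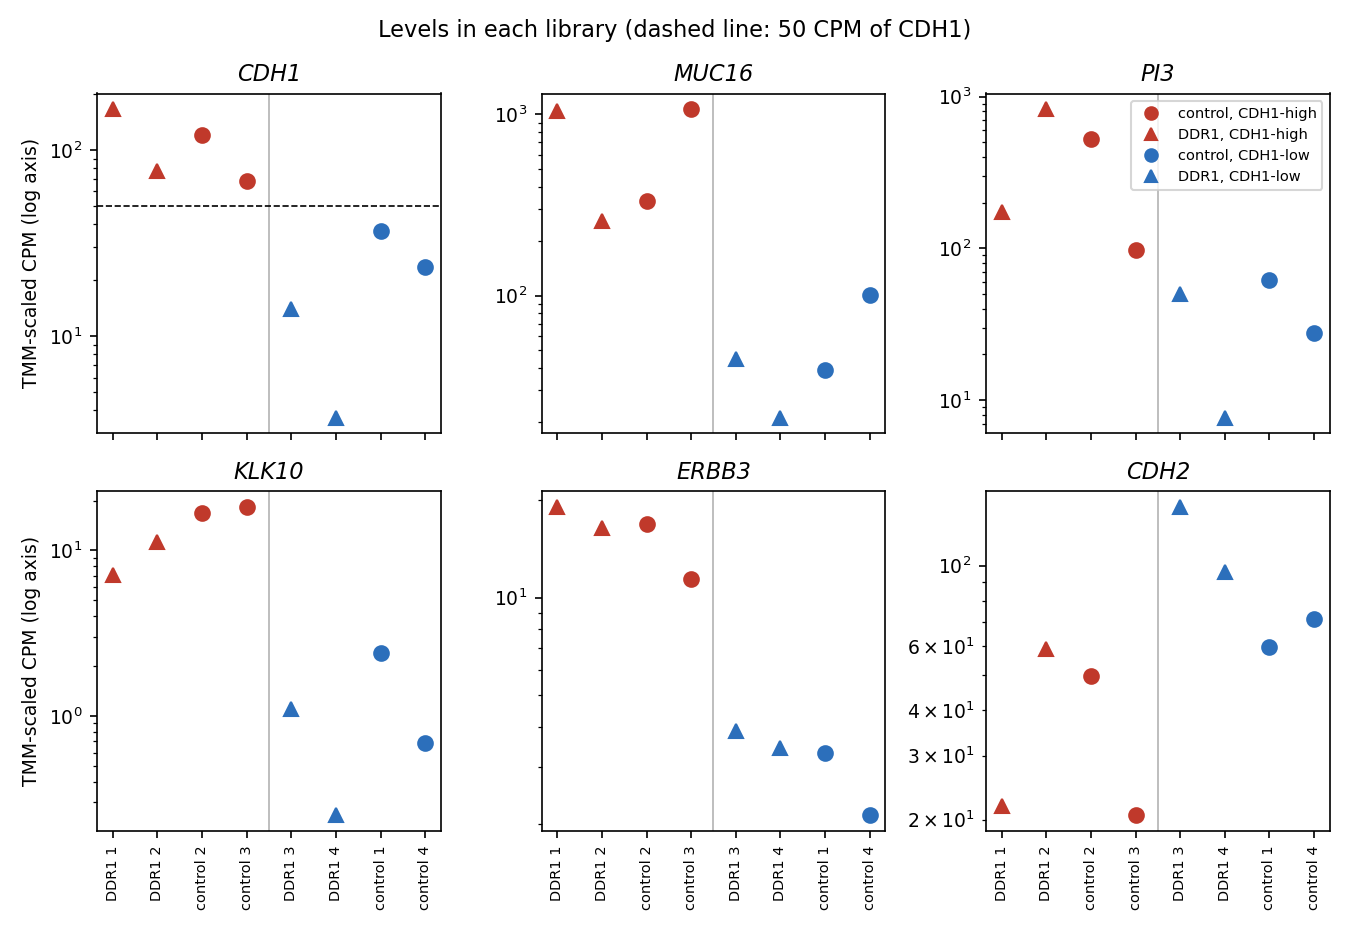
TMM-scaled CPM per library on log axes for CDH1, MUC16, PI3, KLK10, ERBB3 and CDH2; each point is 1 library, red for CDH1-high and blue for CDH1-low, circles for controls and triangles for DDR1, and the dashed line marks the 50 CPM threshold on CDH1. In all 6 panels the sides do not overlap, with CDH2 lower on the high side and its values of 58.9 CPM in DDR1 replicate 2 and 59.7 CPM in control 1 nearly level.

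Over the 18972 genes tested besides CDH1, 156 were separated and higher on the high side, which is 0.822% of all genes, and 65 were separated and lower, which is 0.343%. At any size of difference, 602 genes (3.17%) were higher and 387 (2.04%) lower without overlap. Protein-coding genes made up 136 of the 156 higher and 33 of the 65 lower genes. Without the library labelled DDR1 replicate 1, the counts were 216 higher and 80 lower, and 139 of the 156 and 45 of the 65 were again among them. Leaving out a library cannot create an overlap, apart from rescaling, and fewer libraries are easier to separate. Most genes are therefore kept by the rule and the counts tend to rise, so these counts do not test the result. TMM scaling sets the bulk of genes at no difference, so a shift of all genes together cannot be seen in these values. The count filter asks for 4 libraries, so a gene can pass it through the high libraries alone, and its direction then follows from the filter. FBP1, at 0 to 0.15 CPM on the low side, is such a gene among the separated ones.

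The control libraries and the DDR1 libraries give separate values of the same difference, since they share no library. Across the 18972 genes the difference within controls and that within DDR1 libraries had the same sign for 58.1% of genes, with a Pearson correlation of 0.326. Among the 12190 genes with a mean of at least 5 CPM on a side, the share was 58.8% and the correlation 0.408. These are correlations across genes, which are not independent replicates, and no p is given.

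**Figure D2:**
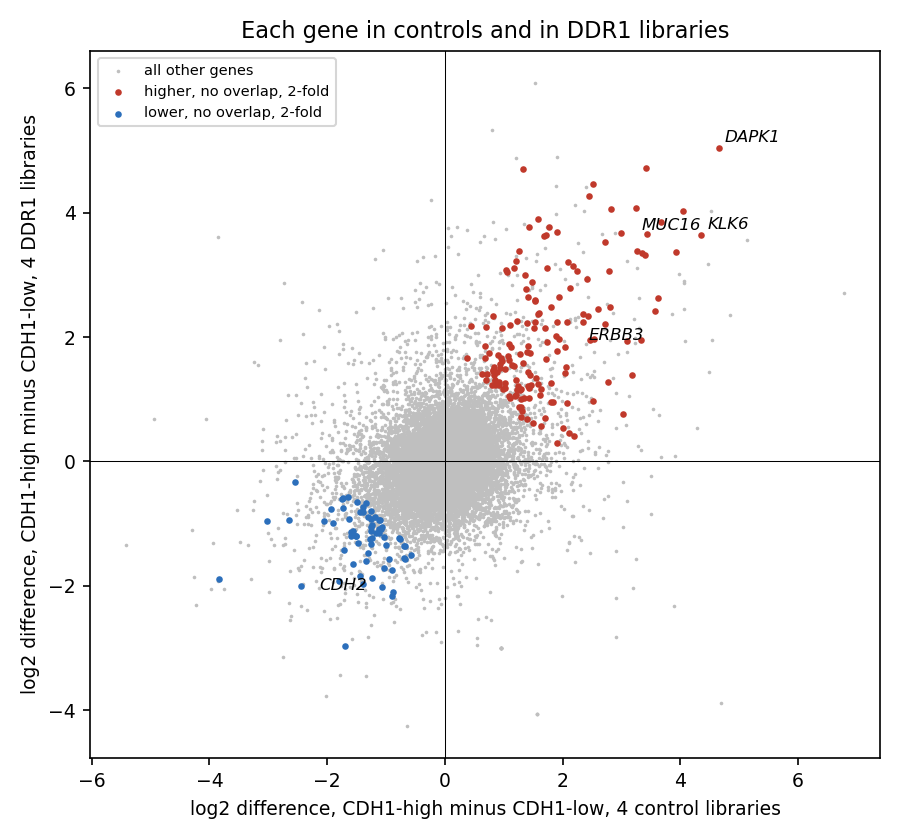
Each point is 1 gene: the log2 difference between high and low control libraries on the x axis and between high and low DDR1 libraries on the y axis; red and blue points are separated genes. DAPK1, at 4.65 within controls and 5.04 within DDR1 libraries, lies farthest out among the labelled genes, and that red points are in the upper right and blue ones in the lower left follows from the rule of no overlap.

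The antiprotease and cornified envelope genes stood out in number. These genes encode secreted protease inhibitors, secreted proteases of surface epithelia and the proteins that harden the outer layer of squamous cells. Of 32 listed genes 24 were tested, all 24 had a higher mean on the high side, and 9 (37.5%) were separated, beside 0.822% of all genes. Their median difference was 3.02, with 2.52 in the controls and 2.89 in the DDR1 libraries, and their summed level was 981 to 2410 CPM on the high side and 402 to 713 CPM on the low side. The list was drawn up with earlier results of these libraries known, so its direction is not independent evidence. The count filter asks for 4 libraries, and of the separated members KLK11 and A2ML1 passed it through the high libraries alone. These genes held at most 0.332 and 0.405 CPM on the low side, so their direction follows from the filter.

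LCN2, which encodes the iron-siderophore carrier lipocalin-2, read 35.4, 5.94, 11.2 and 77.5 CPM against 2.99, 1.29, 3.88 and 0.7 CPM, a difference of 3.45 (SE 0.98). S100P, a small calcium-binding protein, read 12.8, 10.1, 24.6 and 19 CPM against 3.49, 0.762, 2.59 and 1.25 CPM (3.12, SE 0.55). SLPI, a second secreted elastase inhibitor, was abundant on both sides and differed less, with 529, 477, 668 and 646 CPM against 314, 233, 346 and 171 CPM (1.16, SE 0.26). For each of these genes the lowest high library was above the highest low library. SCEL, the cornified envelope precursor sciellin, was also separated, but barely: control 3 held 1.08 CPM and DDR1 replicate 3 held 1.05 CPM. SPRR1B, another envelope precursor, was not separated, since DDR1 replicate 1 at 0.977 CPM was below DDR1 replicate 3 at 1.54 CPM.

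The separated genes included 5 of a single gene cluster. KLK5, KLK6, KLK8, KLK10 and KLK11 encode kallikreins, secreted serine proteases of epithelial surfaces, and they lie on chromosome 19, among other kallikrein genes, between 50943303, the start of KLK5, and 51028039, the end of KLK11, all on the minus strand. KLK10 read 16.7, 18.4, 7.07 and 11.3 CPM against 2.38, 0.685, 1.09 and 0.25 CPM (3.76, SE 0.68). KLK5 read 12.1, 11.8, 3.25 and 23.9 CPM against 1.61, 0.229, 2.14 and 0.05 CPM (4.04, SE 1.14). KLK6 read 8.06, 13.1, 2.04 and 20.9 CPM against 0.997, 0.152, 1.13 and 0.15 CPM, with a difference of 4.36 within controls and 3.64 within DDR1 libraries. In all 3 of these genes DDR1 replicate 1 was the lowest of the high libraries. KLK7 was the tested exception, because control 3 at 2.93 CPM and DDR1 replicate 1 at 1.49 CPM were below control 1 at 3.71 CPM and DDR1 replicate 3 at 4.01 CPM. Of the 15 kallikrein genes 6 were tested and 5 separated (83.3%, beside 0.822% of all genes), a group chosen after its values were seen. KLK5, KLK6, KLK10 and KLK11 were also counted in the antiprotease and cornified envelope list, so this is not a separate result. KLK11 passed the count filter through the high libraries alone. KLK8 was named after its values were seen, and it was at only 1.03 to 1.99 CPM on the high side. It overlaps AC011473.4 on the same strand, a gene that was also separated, so the count of KLK8 is uncertain.

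The promoters of the higher genes were read for the letters CAGGTG and CACCTG, which are the same E-box hexamer on either strand and the core that ZEB and SNAI repressors are known to bind. The window was the 250 bases before the first start in RefSeq's GRCh38.p14 table. It held the hexamer in 4781 of 27305 promoters of that table (17.5%), in 1835 of the 11372 tested genes that matched it (16.1%), in 25 of the 97 matched among the 156 higher genes (25.8%), and in 2 of the 28 matched among the 65 lower genes (7.14%). For LCN2 and S100P the window lies inside the GENCODE gene model, which starts upstream of the RefSeq start, at 128149071 and 6693069. A match describes letters in a window and is no evidence of binding. The 4 promoters below belong to the separated protein-coding genes with the hexamer, at least 5 CPM on the high side and the largest differences. Each is printed 5′ to 3′ on the strand of the gene, with the hexamer in capitals.
KLK6, chr19:50969592-50969841, minus strand: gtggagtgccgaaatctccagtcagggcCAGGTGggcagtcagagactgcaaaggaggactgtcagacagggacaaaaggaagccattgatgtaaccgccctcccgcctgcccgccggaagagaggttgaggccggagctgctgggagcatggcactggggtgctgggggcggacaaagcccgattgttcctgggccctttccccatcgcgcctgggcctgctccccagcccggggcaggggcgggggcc
LCN2, chr9:128149203-128149452, plus strand: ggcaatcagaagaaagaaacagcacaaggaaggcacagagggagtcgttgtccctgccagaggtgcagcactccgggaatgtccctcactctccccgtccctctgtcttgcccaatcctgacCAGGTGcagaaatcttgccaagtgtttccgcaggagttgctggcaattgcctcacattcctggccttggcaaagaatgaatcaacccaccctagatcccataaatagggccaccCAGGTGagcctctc
S100P, chr4:6693628-6693877, plus strand: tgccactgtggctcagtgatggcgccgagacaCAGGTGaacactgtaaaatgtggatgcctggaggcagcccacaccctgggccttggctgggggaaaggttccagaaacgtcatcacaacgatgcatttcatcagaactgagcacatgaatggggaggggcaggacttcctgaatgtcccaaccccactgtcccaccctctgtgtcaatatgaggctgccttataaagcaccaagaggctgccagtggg
SLC15A1, chr13:98752673-98752922, minus strand: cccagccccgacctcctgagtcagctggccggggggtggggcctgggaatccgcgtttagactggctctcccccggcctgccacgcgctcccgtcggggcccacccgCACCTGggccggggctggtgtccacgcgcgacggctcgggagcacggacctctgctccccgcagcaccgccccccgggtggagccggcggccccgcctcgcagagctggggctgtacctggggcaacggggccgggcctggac

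The hexamer starts 222 bases before the start in KLK6, 218 before it in S100P and 143 before it in SLC15A1, and LCN2 holds it at 128 and 14 bases before the start. SLC15A1, the proton-coupled peptide transporter PEPT1, is itself one of the separated genes, with 4.89, 2.24, 9.92 and 9.4 CPM against 1.38, 1.29, 0.85 and 0.85 CPM (2.32, SE 0.52). Of the 156 higher genes, GRHL3, ELF3, IL1R2 and MYO5B also carried the hexamer in that window.

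Among the mucins, 11 of 14 were tested, 10 had a higher mean on the high side, and MUC16 and MUC3A were separated (18.2%, beside 0.822% of all genes). MUC3A, an intestinal-type membrane mucin, read 5.22, 5.55, 3.28 and 3.38 CPM against 0.388, 0.685, 1.82 and 0.8 CPM (2.29, SE 0.46). MUC4, the membrane mucin that can bind ERBB2, read 22.7, 0.904, 12.8 and 30.7 CPM against 0.665, 0.99, 2.51 and 0.25 CPM, so control 3 lay within the low range. MUC1 had the same exception, with 0.689 CPM in control 3 and 5.85 to 9.54 CPM in the other high libraries. The median of the mucin list was 1.47, and it was 2.16 without control 3.

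The junction genes around CDH1 mostly did not follow it. Of the 11 other adherens junction and catenin genes tested, 5 were higher, 6 lower and 0 separated, with a median of -0.03. CTNNB1, the beta-catenin that links E-cadherin to the cytoskeleton, read 366, 433, 275 and 409.6 CPM against 545, 389, 398 and 250.1 CPM, and the sides overlapped. CDH3, the P-cadherin gene next to CDH1 on chromosome 16, read 245, 249, 203 and 214 CPM against 248, 289, 266 and 55 CPM. Only DDR1 replicate 4, which had the lowest CDH1, was low for CDH3.

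Tight junction and desmosome genes each had 1 separated member, 5.56% and 8.33% of those tested, beside 0.822% of all genes. TJP3, the scaffold protein ZO-3, read 2.71, 1.98, 3.88 and 3.26 CPM against 0.443, 0.457, 0.647 and 0.15 CPM (2.65, SE 0.41). DSG3, the desmosomal cadherin desmoglein-3, read 39.8, 7.97, 9.31 and 23.4 CPM against 5.54, 3.81, 5.95 and 0.85 CPM (2.29, SE 0.83). Of the 18 tight junction genes 15 were higher, with a median of 0.50, and of the 12 desmosome genes 10 were higher, with a median of 0.35. CLDN4, a barrier-forming claudin, read 18.1, 39.4, 36 and 25.7 CPM against 6.81, 18.7, 4.77 and 11.1 CPM. It missed separation through control 2 at 18.1 CPM and control 4 at 18.7 CPM.

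Regulators of the epithelial state were represented by 12 tested genes of 16 listed, CDH1 left out, of which 10 were higher and 3 separated (25%, beside 0.822% of all genes), with a median of 1.11. GRHL1, a grainyhead factor of epidermal differentiation, read 23.3, 15.4, 20.2 and 29.4 CPM against 9.19, 4.57, 10.6 and 2.4 CPM (1.89, SE 0.52). GRHL3, of the same family, differed by 1.29 (SE 0.31), and ELF3, an epithelial ETS factor, by 1.15 (SE 0.28). ESRP1, a splicing factor of epithelial cells, read 32.3, 23.2, 50.4 and 15.1 CPM against 27.6, 4.95, 2.55 and 0.25 CPM. Control 1 kept ESRP1 inside the high range, and the other 3 low libraries were below it. ZNF750, an epidermal differentiation factor named after its values were seen, read 9.52, 6.11, 13.7 and 9.14 CPM against 3.43, 3.66, 2.63 and 3.35 CPM (1.49, SE 0.26). Other epithelial lists held 0 separated genes. Of 21 epithelial surface and adhesion genes tested, 13 were higher and 8 lower, with a median of 0.38 and 0.08 within controls. Of 6 urothelial markers tested, 5 were higher and 1 lower, with a median of 0.39.

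The repressors of CDH1 did not separate the sides. ZEB1 read 24.1, 24.6, 27.2 and 28.1 CPM against 13.2, 24.6, 31.3 and 30.2 CPM. ZEB2 read 20.2, 11, 4.45 and 13.4 CPM against 27.1, 33.2, 15.5 and 6.5 CPM, a difference of -0.69 (SE 0.69). SNAI2 read 59.3, 63.5, 35 and 82.6 CPM against 69.2, 52.9, 108 and 94 CPM. Of the 8 transcription factors of epithelial-mesenchymal transition tested, 6 were lower on the high side, 2 were not lower, and 0 were separated.

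Of the keratins, the intermediate filaments of epithelia, 16 were tested, 14 were higher and 2 lower on the high side, and 0 were separated. Their median was 0.49, with 0.68 in controls and 0.21 in DDR1 libraries. KRT5, a basal keratin, stood at 2550.2, 2077, 2723 and 2793 CPM against 2718, 707, 1611 and 4013 CPM. KRT13, a keratin of suprabasal cells in stratified epithelia, read 84.3, 20.6, 115 and 154 CPM against 6.54, 2.74, 10.6 and 22 CPM. Its sides touched, with control 3 at 20.6 CPM and DDR1 replicate 4 at 22 CPM. KRT7, a keratin of simple and urothelial epithelia, ran the other way without overlap, at 220.3 to 316 CPM on the high side and 365 to 532 CPM on the low side (-0.74, SE 0.19), which is under 2-fold.

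The separated gene with the largest difference was DAPK1, a calmodulin-regulated kinase with a role in cell death. DAPK1 (chromosome 9, 87497228 to 87708633) read 10.6, 51.2, 55.1 and 31.4 CPM against 0.72, 0.99, 4.69 and 0.25 CPM, a difference of 4.85 (SE 0.97). It was 3.73 in lane 7, 5.58 with no lane and 5.04 in lane 8. MYH14, a non-muscle myosin heavy chain, differed by 4.07 (SE 0.88). COBL, an actin nucleator, and GABRE, a GABA receptor subunit, were also among the named genes, at 3.49 (SE 0.94) and 3.35 (SE 0.89).

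ERBB3 (chromosome 12, 56076799 to 56103505), the neuregulin receptor of the EGF receptor family, read 16.9, 11.5, 19.1 and 16.4 CPM against 3.32, 2.13, 3.88 and 3.45 CPM, a difference of 2.30 (SE 0.24). Its values within lanes were 2.32, 2.38 and 2.25. EGFR, its partner in that family, was level at 336 to 519 CPM against 359 to 634 CPM. Over the 13 genes of the family and its ligands, 7 were higher and 6 lower, with ERBB3 as the separated gene (7.69%, beside 0.822% of all genes).

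**Figure D3:**
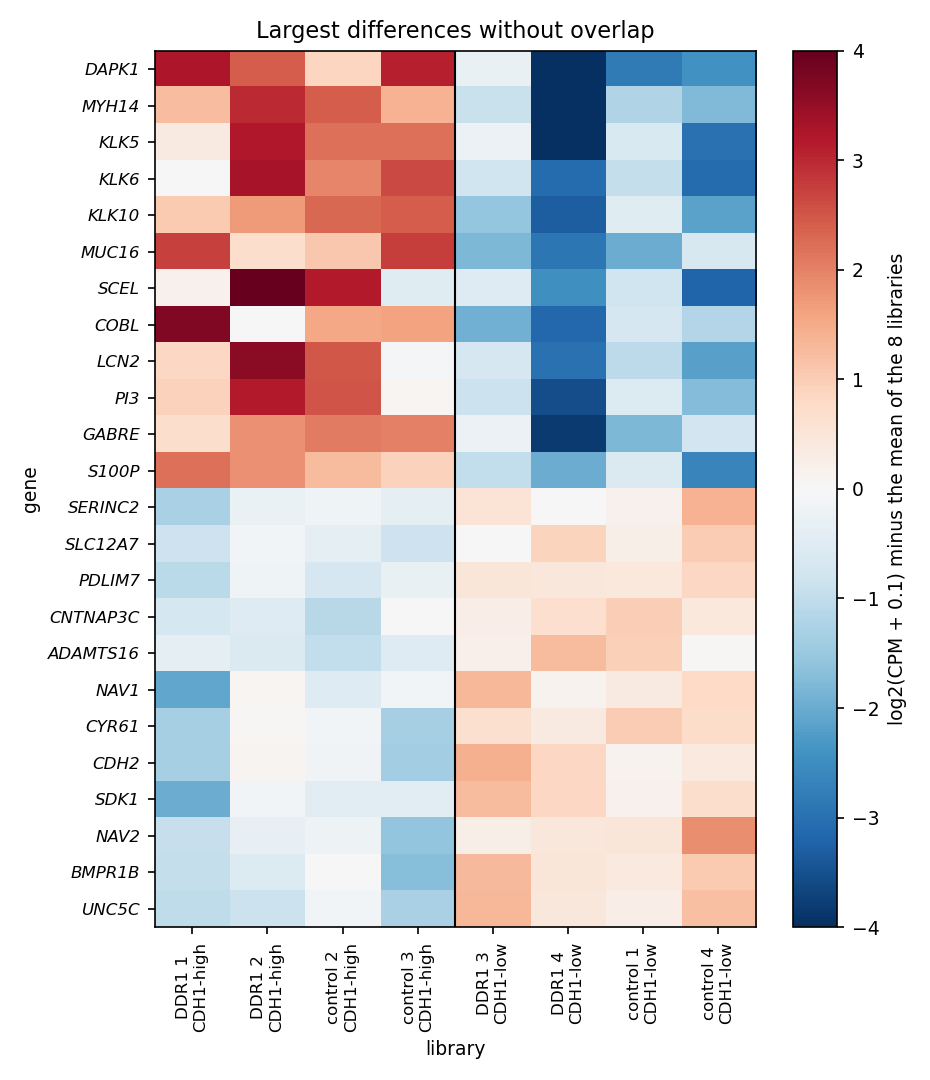
Colour shows log2(CPM + 0.1) minus the mean of the gene over the 8 libraries, with the scale limited at 4 in both directions, for the named genes with the largest differences; columns are libraries in 2 blocks by side. The higher genes include DAPK1, MYH14 and KLK5, and the lower genes include UNC5C, BMPR1B and CDH2.

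The lower genes had smaller differences than the higher ones. CDH2, which encodes N-cadherin, the cadherin of mesenchymal and neural cells, read 49.7, 20.5, 21.8 and 58.9 CPM against 59.7, 71.5, 145 and 96 CPM, a difference of -1.37 (SE 0.48). The sides were close at DDR1 replicate 2 and control 1, and within lane 7 the difference was -0.26, beside -1.80 with no lane and -1.72 in lane 8. UNC5C, a netrin receptor, read 3.55, 1.51, 1.87 and 2.09 CPM against 4.6, 8.99, 9.87 and 5.35 CPM (-1.64, SE 0.37). BMPR1B, a BMP receptor that lies beside UNC5C on chromosome 4, read 14.3, 4.39, 7.42 and 9.77 CPM against 18.7, 29.6, 35.3 and 20.2 CPM (-1.60, SE 0.42). The lane 7 differences of these genes were also small, at -0.37 for UNC5C and -0.38 for BMPR1B.

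PDLIM7, a LIM protein of actin stress fibres, read 17.2, 22.6, 13.1 and 24.6 CPM against 37.2, 49.4, 38.3 and 37.9 CPM, with differences of -1.11, -1.13 and -1.08 in the 3 lane sets. NAV2 and NAV1, neuron navigator proteins of the cytoskeleton, differed by -1.51 (SE 0.49) and -1.32 (SE 0.56), and SDK1, an immunoglobulin-family adhesion protein, by -1.49 (SE 0.48). SDK1 and NAV1 overlap other gene models, and the protocol does not mention strand marking, so their counts are uncertain.

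Of the 18 mesenchymal markers tested, 17 were lower on the high side, CDH2 was separated (5.56%, beside 0.343% of all genes), and AXL and ITGA5 were lower without overlap by less than 2-fold. Together these 3 genes stand beside 2.04% of all genes that were lower without overlap. AXL, a receptor kinase of mesenchymal tumour cells, read 154, 199, 82.1 and 185 CPM against 352, 394, 236 and 222 CPM (-0.99, SE 0.36). The median of the list was -0.98, with -1.1 in controls and -0.87 in DDR1 libraries, and it was -0.71 without the library labelled DDR1 replicate 1. VIM, the intermediate filament vimentin, was the exception, at 437, 564, 431 and 756 CPM against 516, 188, 150.4 and 1096 CPM. FN1 and THBS1, matrix glycoproteins, overlapped widely. THBS1 was 26 CPM in DDR1 replicate 1 and 113 CPM in DDR1 replicate 4, on opposite sides, and 193 to 3327 CPM in the other libraries.

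CYR61, the matricellular YAP target also called CCN1, read 77.3, 33.4, 33.8 and 86.5 CPM against 171, 139, 131 and 107 CPM (-1.37, SE 0.40). It was the separated member of 15 YAP and TEAD targets (6.67%, beside 0.343% of all genes), 12 of which were lower, with a median of -0.24. With AXL and PTPN14, 3 of the 15 were lower without overlap, beside 2.04% of all genes. CTGF, its close relative, had a larger mean difference (-1.86, SE 0.90) but overlapped, since DDR1 replicate 4 held 24.3 CPM and control 2 held 40.4 CPM. Of the 17 TGF-beta ligands and targets, 12 were lower and 0 separated.

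**Figure D4:**
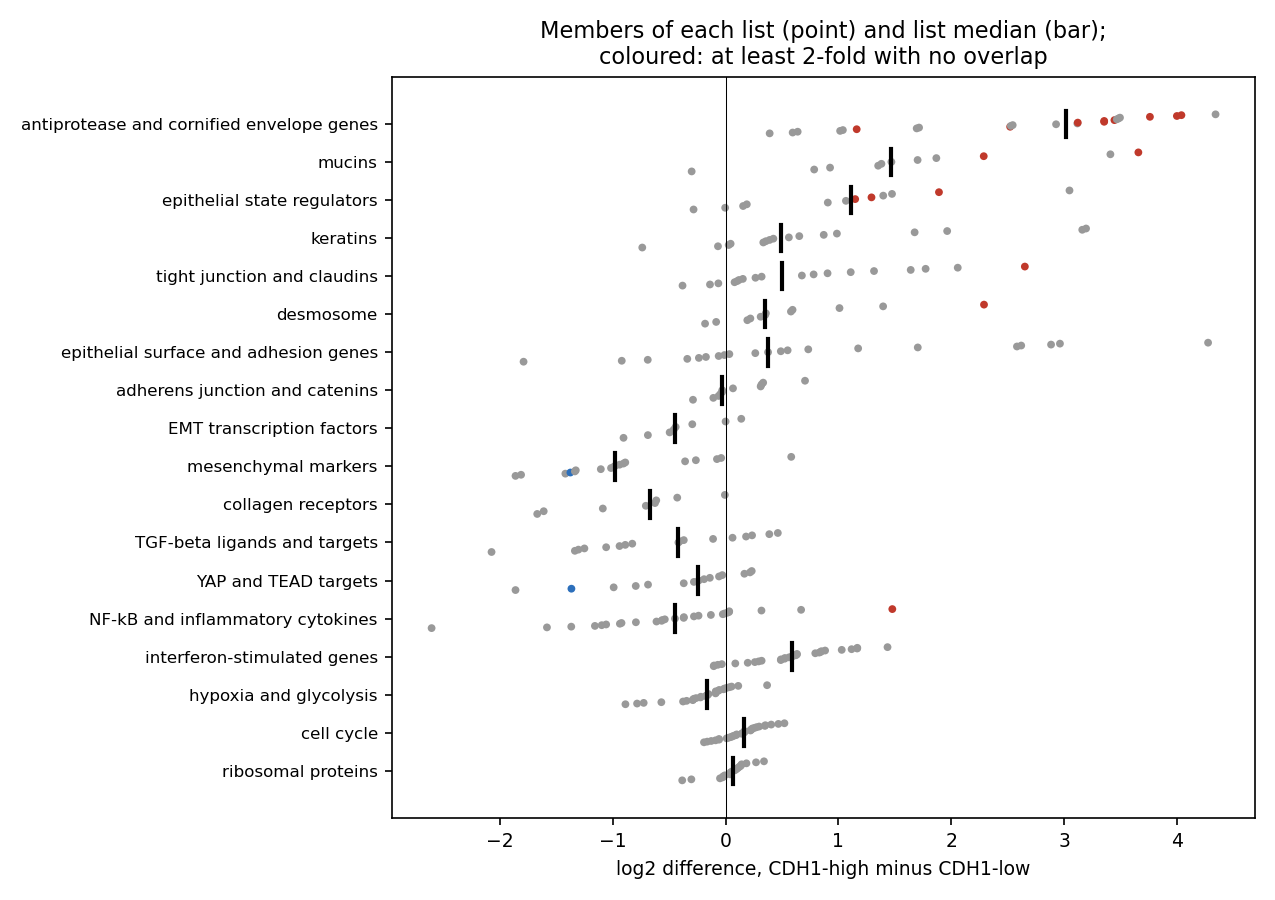
Each point is the log2 difference, high minus low, of 1 tested member of a gene list, CDH1 left out, and the black bar is the median of the list; red and blue points are separated genes, higher and lower on the high side. The antiprotease and cornified envelope list has its median at 3.02, the mucins at 1.47 and the mesenchymal markers at -0.98.

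The collagen receptors, genes whose proteins bind collagen as DDR1 does, were lower on the high side in 8 of 8 tested genes, with a median of -0.67 and 0 separated. ITGA2, the collagen-binding integrin alpha-2 chain, read 301, 266, 149.7 and 599 CPM against 558, 854, 1085 and 284 CPM (-1.09, SE 0.59). DDR1 differed by -0.62 (SE 0.71) over all libraries, by 0.08 within the controls and by -1.33 within the DDR1 libraries. Within the DDR1 label the sides did not overlap, at 159 and 343 CPM on the high side and 427 and 810 CPM on the low side. Without DDR1 replicate 4, which has the highest DDR1, the difference over all libraries was -0.14, and without control 1 it was -0.99.

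Inflammatory and interferon genes showed little separation. C3, the central complement component, was the separated gene of 27 in the NF-kB list (3.7%, beside 0.822% of all genes), and it was higher on the high side, at 336, 240.3, 242 and 262 CPM against 104, 166, 82.5 and 59.8 CPM (1.48, SE 0.33). C3 overlaps GPR108 on the same strand. In the same list 21 genes were lower, among them TNF, at 7.06, 7.88, 3.42 and 2.69 CPM against 21.2, 18.1, 8.42 and 7.35 CPM, with an overlap between control 3 and DDR1 replicate 4. Within each label the TNF values of the sides did not overlap, with differences of -1.38 in controls and -1.35 in DDR1 libraries. Of the 29 interferon-stimulated genes 25 were higher and 0 separated, with a median of 0.59. OAS1, which senses double-stranded RNA, was 187 CPM in control 3 and 17 CPM in DDR1 replicate 4, the extremes of the 8 libraries.

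The high libraries differed among themselves. FLG, the epidermal protein filaggrin, read 57.8 and 43.6 CPM in control 2 and DDR1 replicate 2 and 1.03 and 0.431 CPM in control 3 and DDR1 replicate 1. CEACAM5, a cell surface glycoprotein, read 72.3 and 105 CPM in the former and 5.98 and 8.62 CPM in the latter. S100A9, a calcium-binding protein of neutrophils and of activated keratinocytes, read 93.6 and 171 CPM against 13.7 and 22.3 CPM. KRT4, a keratin of mucosal epithelia, read 144 and 155 CPM against 1.21 and 28.9 CPM. Other genes of surface epithelia were not arranged this way: S100P was highest in DDR1 replicate 1 at 24.6 CPM, and KLK10 in control 3 at 18.4 CPM. Control 2 and DDR1 replicate 2 were the closest pair of all libraries, with a chi-square per degree of freedom of 32.2, which is far from counting error alone. These genes were picked after their values were seen, and the pairs were not tested against each other.

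The leading principal component of log2 CPM, with 33.4% of the variance, did not separate the sides. The second, with 18.3%, did: the high libraries lay at 35.6, 28.9, 33.6 and 18.1 and the low libraries at -9.3, -13.6, -16.8 and -76.5. DDR1 replicate 4, the library with the least CDH1, lay far from the other low libraries.

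The separated genes were not spread evenly over the chromosomes. Chromosome 19 held 29 of the higher genes (2.40% of its tested genes) and chromosome 2 held 21 (1.72%), beside 0.822% overall. On chromosome 19, beside the kallikreins, 8 of 34 tested zinc finger genes of the 19p12 block were separated and 33 were higher, with a median of 0.30. Elsewhere on that chromosome 1 of 188 zinc finger genes was separated, and on other chromosomes 3 of 213. ZNF676 read 8.1, 7.66, 20.7 and 9.62 CPM against 0.775, 3.2, 1.42 and 1.85 CPM (2.65, SE 0.52), and ZNF429 5.47, 5.04, 12.5 and 4.65 CPM against 0.609, 1.14, 2.1 and 1.7 CPM (2.25, SE 0.49). This block was chosen after its values were seen, and its genes are close copies between which reads can be split.

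Chromosome 2 differed as a whole. Of its 1224 tested genes 988 (80.7%) were higher on the high side, with a median of 0.315, 0.247 within controls and 0.397 within DDR1 libraries. Without overlap, 192 genes (15.7%) were higher and 2 lower, beside 3.17% and 2.04% of all genes. The median of the chromosome per library was 0.09, 0.37, 0.15 and 0.06 on the high side and 0.05, -0.06, -0.13 and -0.46 on the low side, so control 1 and DDR1 replicate 2 nearly met. Within lane 7 the difference was 0.04, beside 0.46 with no lane and 0.40 in lane 8. Each 20 Mb window of the chromosome had a median between 0.24 and 0.43. GRHL1, at 9951693 to 10002277, is one of the separated genes on it. Chromosome 13 was the other chromosome whose medians per library did not overlap, at 0 to 0.18 on the high side and -0.17 to -0.03 on the low side. Its median difference was 0.162, with 0.214 within controls and 0.088 within DDR1 libraries.

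Chromosome 5 leaned the other way, with 17.8% of its 841 genes higher and a median of -0.273. It held 11 of the separated lower genes (1.31%, beside 0.343% of all genes), PDLIM7 and EGR1 among them, and 1 of the higher ones. Without overlap, 60 genes (7.13%) were lower and 3 higher, beside 2.04% and 3.17% of all genes. The median of the chromosome was -0.509 within controls and -0.01 within DDR1 libraries, and control 3 alone stood at -0.56 per library. In the first 60 Mb, the 3 windows of 20 Mb had medians of -0.55, -0.51 and -0.37, and both labels were below 0 in each.

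**Figure D5:**
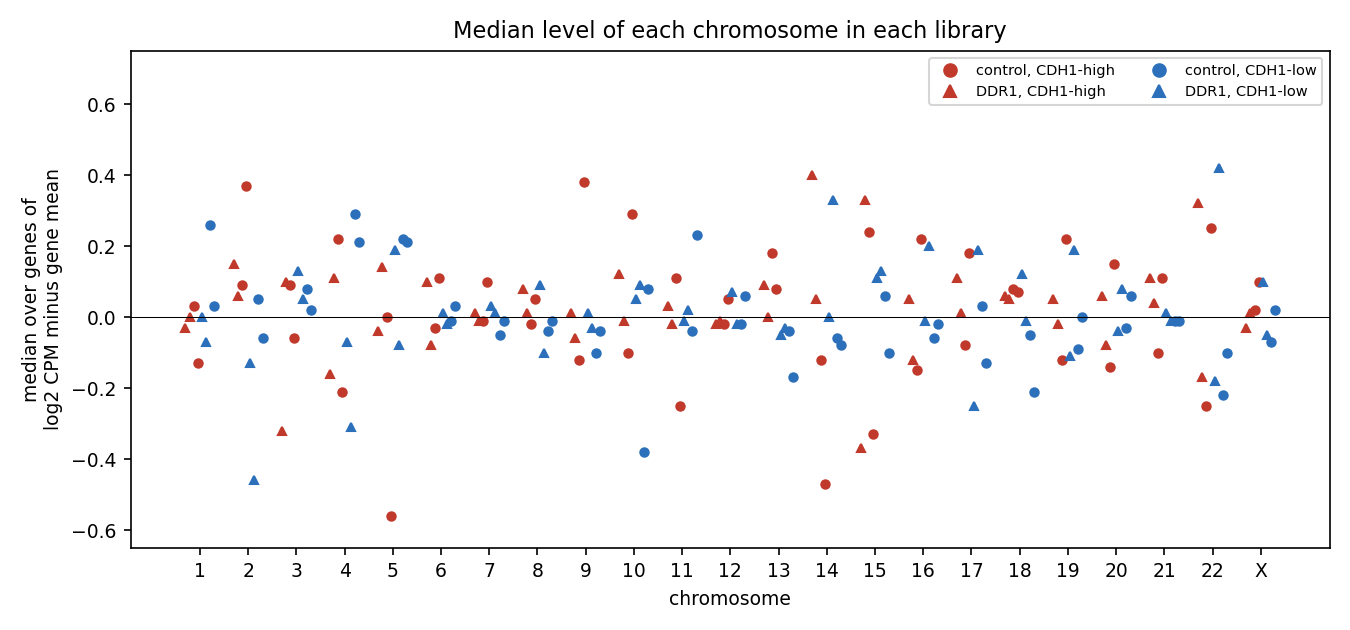
Median over the tested genes of each chromosome of log2 CPM minus the mean of the gene over the libraries, with 1 point per library, red for CDH1-high and blue for CDH1-low, circles for controls and triangles for DDR1. On chromosome 2 the red points lie at 0.06 to 0.37 and the blue points at -0.46 to 0.05, while on chromosome 5 the lowest point is control 3 at -0.56.

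Markers of other cells varied between libraries on both sides. Among leukocyte markers 6 of 23 were tested, and 0 were separated. PTPRC, the common leukocyte antigen, was at most 0.167 CPM in any library, while the macrophage marker CD68 read 11.9, 37, 25.8 and 18.1 CPM against 12.8, 14.2, 29.8 and 46.2 CPM. The summed level of that list, which holds S100A8 and S100A9, was 57.5 to 273 CPM on the high side and 22.8 to 67.1 CPM on the low side. Of 12 fibroblast markers 7 were tested, and all 7 were lower on the high side, with a median of -1.16 and 0 separated. Their summed level was 14.8 to 325 CPM on the high side and 17.7 to 206 CPM on the low side. COL6A3, a collagen VI chain, gave most of the highest sum, with 27.9, 11.9, 1.7 and 255 CPM against 102, 17.7, 61.3 and 4.65 CPM, and DCN, the matrix proteoglycan decorin, was at most 0.418 CPM. Endothelial and mural markers, 4 of them tested and 0 separated, summed to 15.5 to 62.5 CPM against 21.7 to 84.9 CPM. CDH5, the cadherin of endothelium, read 19.3, 1.64, 2.82 and 28 CPM against 2.6, 41.5, 20.8 and 51 CPM, and KDR, the VEGF receptor, was at most 0.292 CPM. Of the erythroid, fat, muscle and nerve markers, HBB, a haemoglobin gene, was at 0 in all libraries, and the list summed to 1.7 to 7.39 CPM against 4.05 to 26.1 CPM. The part of these cells in the differences was not tested. Mitochondrially encoded genes had a median of 0.86 within controls and -0.77 within DDR1 libraries. EGR1 and EGR2, early-response genes that also rise on handling of tissue, were separated and lower on the high side, by -1.02 (SE 0.37) and -1.04 (SE 0.26). They were the 2 separated genes of 16 handling stress genes (12.5%, beside 0.343% of all genes). At any size of difference, 4 of the 16 were lower without overlap, DUSP1 among them (-0.83, SE 0.34), beside 2.04% of all genes. Of the 16 genes 10 were lower and 6 higher. The part of handling in the differences was not tested. Cell cycle genes, with 24 of 30 higher and a median of 0.16, and hypoxia genes, with 24 of 29 lower and a median of -0.16, held 0 separated genes. Of the 29 hypoxia genes 2 were lower without overlap by less than 2-fold, beside 2.04% of all genes.

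The question of the study's design is what enforced DDR1 changes. The CDH1 side can be entered as a term in that test because it is balanced over the labels. It is not balanced over the DDR1 level. Within the DDR1 label, DDR1 was at 159 and 343 CPM on the high side and at 427 and 810 CPM on the low side. The side was also measured in the tumours themselves, after DDR1 was enforced, so side and DDR1 level cannot be fully told apart. All DDR1 libraries and no control carry lane 8 in their titles, so the DDR1 label and the lane cannot be told apart in these tests. By edgeR's quasi-likelihood test with Benjamini-Hochberg adjustment, 0 of 18973 genes were called for DDR1 against control with the side as a term (0%), with 827 genes at an unadjusted p under 0.05 (4.36%) and a smallest adjusted p of 0.999. Without the side, 0 were called and 791 had such a p. The typical spread between libraries, as edgeR's biological coefficient of variation, was 0.368 with the side and 0.386 without it. DDR1 itself had a log2 difference of 1.38, an unadjusted edgeR p of 0.0107 and an adjusted p of 0.999. limma-voom called 0 genes (775 at an unadjusted p under 0.05).

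DESeq2 called 27 genes in that comparison, 10 higher and 17 lower in DDR1 libraries, with 955 at an unadjusted p under 0.05. Among them were LCP1, an actin-bundling protein, at 155, 128, 24.3 and 73.9 CPM on the high side and 165, 164, 44.8 and 45.6 CPM on the low side, and LIF, a cytokine of the IL-6 family, at 143, 210.4, 91.1 and 85.5 CPM against 258, 247, 155 and 105.2 CPM. Both were lower in each DDR1 library than in each control of the same side, and their edgeR adjusted p-values were 0.999. LCP1 and LIF were named after their values were seen. TNF was also among the genes called, lower in DDR1 libraries, with an adjusted p of 5e-06 by DESeq2 and 0.999 by edgeR.

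Whether the DDR1 difference was unlike on the CDH1 sides was tested as an interaction. Since the DDR1 libraries of the high side also held less DDR1, this test cannot tell the side from the DDR1 level. By edgeR 0 genes were called (0%), with 505 at an unadjusted p under 0.05 (2.66%), and by limma-voom 0, with 500. The interaction p of DDR1 itself was 0.0708 unadjusted. DESeq2 called 13 genes, 8 of them RNA5-8SN copies of the 5.8S ribosomal RNA gene with the same value in every library, and 525 had an unadjusted p under 0.05.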

How the data were processed

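RNA was sequenced as 150 bp paired reads from 8 T24 xenograft libraries, 4 control and 4 DDR1 by their condition labels. Reads were handled with STAR 2.7.5, RSEM 1.3.1, Trim Galore 0.6.4 and FastQC 0.11.9 on GRCh38, according to the submitters' processing notes. An annotation release and a removal of mouse reads are not given in the sources consulted, and mouse reads can add to conserved genes. The authors deposited expected counts per gene from RSEM, of which 26.5% of the values above 0 were not whole, and they were rounded to whole numbers here. A table of log2 values that the authors had normalized by TMM was used only as an alternative. Identifiers were matched to GENCODE 29 (58039 of 58302), which also gave the coordinates.

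Genes were kept by filterByExpr with a minimum count of 10 (18973 genes, CDH1 included) and scaled by TMM. Log2 CPM used a prior count of 2. Totals of 13716285 to 32271016 counts make counting error small beside the spread between libraries, except for genes near 1 CPM. Every pair of libraries differed beyond counting error (chi-square per degree of freedom at least 32.2), so none was treated as a library deposited more than once; this does not show that they are independent tumours. The 2 tests of the DDR1 label used edgeR 4.0.16 with glmQLFit at its default settings (limma 3.58.1, R 4.3.3), an adjusted p under 0.05 being called. A version with robust=TRUE was run first and then replaced by the default to match the edgeR fit used before on these data. The edgeR fits were tested on simulated counts. The members, gene lists and tests were chosen with earlier results of these data known. Named genes were CDH1, MUC16, PI3 and DDR1, up to 12 protein-coding genes with the largest differences in each direction without overlap and at least 5 CPM on the higher side, and up to 4 genes per list with the largest differences at 5 CPM or more, 117 in all. The counts of 29 named genes are uncertain because they overlap other tested genes, 11 on the same strand. Kallikrein and keratin genes and zinc finger genes are families in which reads can be split between copies. Other genes were named after their values were seen. Alternatives were other scalings, filters, prior count, gene types, tools (DESeq2 1.42.0, limma-voom), lanes, the deposited log2 values and leaving out each library.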

Additional observations from a re-analysis of the deposited data

Results flagged for a closer look

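Within the 4 libraries of a side, 12 of 234 gene-by-side groups (117 named genes) had 1 library far from the other 3, which is about the number that chance gives (1 in 20). On the low side, control 4 stood high for NAV2 at 65.4 CPM (21.1 to 25 CPM in the others), for PDLIM7 at 49.4 CPM (37.2 to 38.3 CPM) and for NRG2, a neuregulin, at 21.8 CPM (11.7 to 12.2 CPM). Control 1 stood high for ADM, the hypoxia-responsive peptide adrenomedullin, at 50.5 CPM (23.4 to 25 CPM).

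DDR1 replicate 4, the library with the least CDH1, stood low for CDH3 at 55 CPM (248 to 289 CPM), for PMEPA1, a TGF-beta target, at 47.8 CPM (244 to 341 CPM), and for the interferon-stimulated neighbours RSAD2 at 1.6 CPM (34.4 to 53.1 CPM) and CMPK2 at 2.5 CPM (25 to 39.5 CPM). RSAD2 and CMPK2 overlap on opposite strands, so their flags are not independent.

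On the high side, control 3 stood high for RSAD2 at 142 CPM (32.2 to 39.4 CPM) and CMPK2 at 106 CPM (22.1 to 27.4 CPM), and low for DUSP1, a stress-induced phosphatase, at 21.6 CPM (39.2 to 43.9 CPM). The library labelled DDR1 replicate 1 stood high for FOXA1, a luminal factor, at 58.3 CPM (19.7 to 23.2 CPM).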

How the results depend on the processing

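The counts of separated genes, 156 higher and 65 lower, moved with the filter, the libraries and the lanes. They were 289 and 121 with no filter and 48 and 22 with a filter of 5 CPM in 4 libraries, which tests other numbers of genes. The deposited log2 values gave 116 lower genes, and protein-coding genes alone 33. With 1 library left out, the counts ran from 205 (without control 2) to 302 (without DDR1 replicate 4) higher and from 80 (without DDR1 replicate 1) to 349 (without DDR1 replicate 4) lower, and 136 to 153 of the 156 and 45 to 63 of the 65 were among them. Fewer libraries are easier to separate and leaving one out creates no overlap, apart from rescaling, so higher counts and kept genes are built in. Within lane 7, with 1 library a side, 1252 and 1099 genes differed by at least 2-fold, in the controls with no lane 1458 and 1969, and within lane 8, with 2 a side, 600 and 368. The tight junction median was 0.1 and the leukocyte median 2.51 with the 5 CPM filter. With 1 library left out, the adherens junction median ran from -0.06 to 0.1 and the mucin median from 1.16 to 2.16. Of the named genes, 0 separated ones changed direction under any alternative. Within lanes and with a library left out this follows from the rule of no overlap, apart from rescaling, so it tests nothing there. Within lanes 96 of 351 values moved by more than the spread within a side.

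The edgeR tests called 0 genes under the scalings, the 5 CPM filter, protein-coding genes only, robust=TRUE and each library left out. With no filter they called 547 genes for the label (440 of them in the main table) and 251 for the interaction, and there edgeR's prior degrees of freedom were infinite, so the genes' own spreads did not enter. DESeq2 called 27 for the label, 15 with no side term and 13 for the interaction; the cause was not tested. No paired analysis was possible because the replicate numbers follow accession order.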
